A study of Rattus norvegicus with 12 samples.

Results

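The genes described here are 44 genes of G2 and mitosis, taken by name from a list of 45 cell division genes that leaves the mitotic kinesin (Kif) genes to a separate list. The list was chosen with earlier results of these data known, so the counts below are descriptions of chosen genes. They were found by symbol in a table of 30957 genes, and all 44 passed the filter on low counts that left 12360 genes for testing; Ccnb2 is not analysed here. RNA sequencing was done on RSC96 cells (Rsc96 in the labels), an established rat Schwann cell line, in 12 libraries of 4 groups with 3 libraries each. One group was Schwann cells alone. The second was Schwann cells kept with monocyte-derived macrophages (MDM), which the labels give as untreated. In the other groups the macrophages had been turned into tumor-associated macrophages (TAM) by supernatant of a pancreatic cancer cell line, BxPC-3 for BxTAM and MIA PaCa-2 for MiaTAM. The table's headers call the Schwann cells HSC96, and the sample titles and headers call the MDM group PBMC. From which species the macrophages came is not stated in the sources used here, nor is whether libraries of 1 group were separate cultures. The p-values below therefore measure the spread between libraries, which may be technical.

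A dividing cell passes from DNA synthesis through G2 into mitosis, where cyclin A and cyclin B bound to CDK1 start chromosome condensation and spindle assembly. The spindle checkpoint holds the cell until every kinetochore is attached. The anaphase-promoting complex with CDC20 then marks cyclin B and securin for destruction, the sister chromatids part, and an actomyosin ring divides the cytoplasm. Transcripts of these genes are low in G0 and G1 and peak in G2 and M. That timing is set largely at the promoter, where the DREAM complex holds the genes silent in resting cells and MYB-MuvB with FOXM1 activates them later, both through an element named CHR (cell cycle genes homology region) that is often found downstream of CCAAT boxes bound by NF-Y. Genes of S phase more often carry E2F sites. Schwann cells rarely divide in a mature nerve and divide again after injury, while RSC96 cells divide continuously in culture.

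The 120 bases before the transcription start of 7 members are printed here as examples. They come only from the mitotic entry, anaphase, spindle and chromosome structure genes, and are not a random sample of the members. Included are the 2 members at the ends of the range beside MDM, Pttg1 and Stmn1. The sequences are RefSeq promoters of the rat build GRCr8, written 5′ to 3′ on the strand of the gene. Capitals mark matches on either strand to CHR (TTTGAA or TTCGAA), to the CCAAT box (CCAAT), or to an E2F-like site (TTTCCCGC, TTTGGCGC, TTTCGCGC or TTTGCCGC).
Cdk1: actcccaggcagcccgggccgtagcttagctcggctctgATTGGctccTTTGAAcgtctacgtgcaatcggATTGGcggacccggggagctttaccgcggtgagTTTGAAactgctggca
Cdc20: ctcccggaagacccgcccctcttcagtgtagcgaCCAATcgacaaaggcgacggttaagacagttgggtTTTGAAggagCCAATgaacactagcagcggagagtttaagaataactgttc
Tacc3: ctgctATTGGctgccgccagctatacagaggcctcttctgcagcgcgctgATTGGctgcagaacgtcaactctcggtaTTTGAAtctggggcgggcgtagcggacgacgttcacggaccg
Ncapg: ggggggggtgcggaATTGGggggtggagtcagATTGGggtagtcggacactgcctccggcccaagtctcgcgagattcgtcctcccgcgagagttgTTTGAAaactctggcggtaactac
Top2a: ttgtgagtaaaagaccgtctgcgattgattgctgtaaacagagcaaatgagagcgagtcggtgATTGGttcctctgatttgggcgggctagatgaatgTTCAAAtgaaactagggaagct
Pttg1: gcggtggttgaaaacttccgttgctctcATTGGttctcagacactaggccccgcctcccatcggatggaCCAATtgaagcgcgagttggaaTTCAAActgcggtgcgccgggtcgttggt
Stmn1: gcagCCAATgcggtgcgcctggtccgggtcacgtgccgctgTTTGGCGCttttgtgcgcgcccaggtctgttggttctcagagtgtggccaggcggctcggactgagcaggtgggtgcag
These stretches lie at chr20:19265173-19265292 (plus strand) for Cdk1, chr5:137255800-137255919 (minus) for Cdc20, chr14:81289699-81289818 (minus) for Tacc3 and chr14:69645446-69645565 (minus) for Ncapg. Those of Top2a, Pttg1 and Stmn1 lie at chr10:84473094-84473213 (minus), chr10:28406327-28406446 (minus) and chr5:151965059-151965178 (plus). In 6 of the 7 a CHR match stands in the printed bases, 22 bases before the start in Top2a, 24 in Ncapg, 29 in Pttg1, 42 in Tacc3, 51 in Cdc20 and at both 72 and 16 in Cdk1. The printed Stmn1 bases hold no CHR match and an E2F-like match 79 bases before the start.

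Of the 44 members, 38 had a RefSeq promoter window of 300 bases, from 250 before to 50 after the start. A CHR match was found in 29 of the 38, or 76.3%, against 13.5% of the 8679 promoters of tested genes. A CCAAT box was found in 30, or 78.9%, against 38.2%, and both together in 25, or 65.8%, against 5.54%. CHR lay within the 100 bases before the start in 18 of 38, or 47.4%, against 3.70% of the promoters of tested genes. The E2F-like sites were found in only 2 of these 38 windows, those of Cdk1 and Stmn1, which is 5.26% against 4.10%. The CHR share was not particular to the members. Other G2 and mitosis genes had CHR in 37 of 49 promoters (75.5%), and mitotic kinesins in 6 of 11 (54.5%). CHR and CCAAT together stood in 46.9% and 45.5% of these. Among S phase and DNA replication genes CHR was found in 6 of 33 promoters (18.2%), an E2F-like site in 15 (45.5%) and a CCAAT box in 20 (60.6%). The windows of Aurka, Bub1, Melk and Arhgap11a held no CHR, CCAAT or E2F-like match. A match describes letters in a window and is not a measured binding site. The absence of a match holds only for these 300 bases around the annotated start, whose placement was not checked.

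RNA of the members stepped down at 2 points across the groups: it was highest in cells alone, lower beside MDM and lowest beside either kind of TAM. Summed over the 44 genes, the 3 libraries of cells alone held 8380 to 8596 CPM (counts scaled to the same library total, so that levels of 1 gene compare between libraries), those with MDM 4615 to 4919, those with BxTAM 2807 to 2930 and those with MiaTAM 2483 to 2703. The 4 ranges did not overlap. The median member stood at 57.2% of its level in cells alone beside MDM, at 31.8% beside BxTAM and at 30.2% beside MiaTAM. In 43 of the 44 genes every library of cells alone lay above every MDM library and every MDM library above all 6 TAM libraries, an order found in 3.52% of all tested genes. The exception was Pttg1. Beyond that order, 14 members also had every MiaTAM library above every BxTAM library and 10 had the reverse. Of the 435 tested genes with that order, 72 and 98 did so, the counts to set beside 14 and 10 of the 43 members. As shares of all tested genes these are 0.583% and 0.793%, which also count the genes without the first order. Between the 2 TAM groups alone, 18.6% of all genes were higher beside MiaTAM without overlap and 20.0% lower, so the 10 were near the background. In bulk RNA, fewer cells in G2 and mitosis cannot be told apart from less of these transcripts in each such cell.

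**Figure D1:**
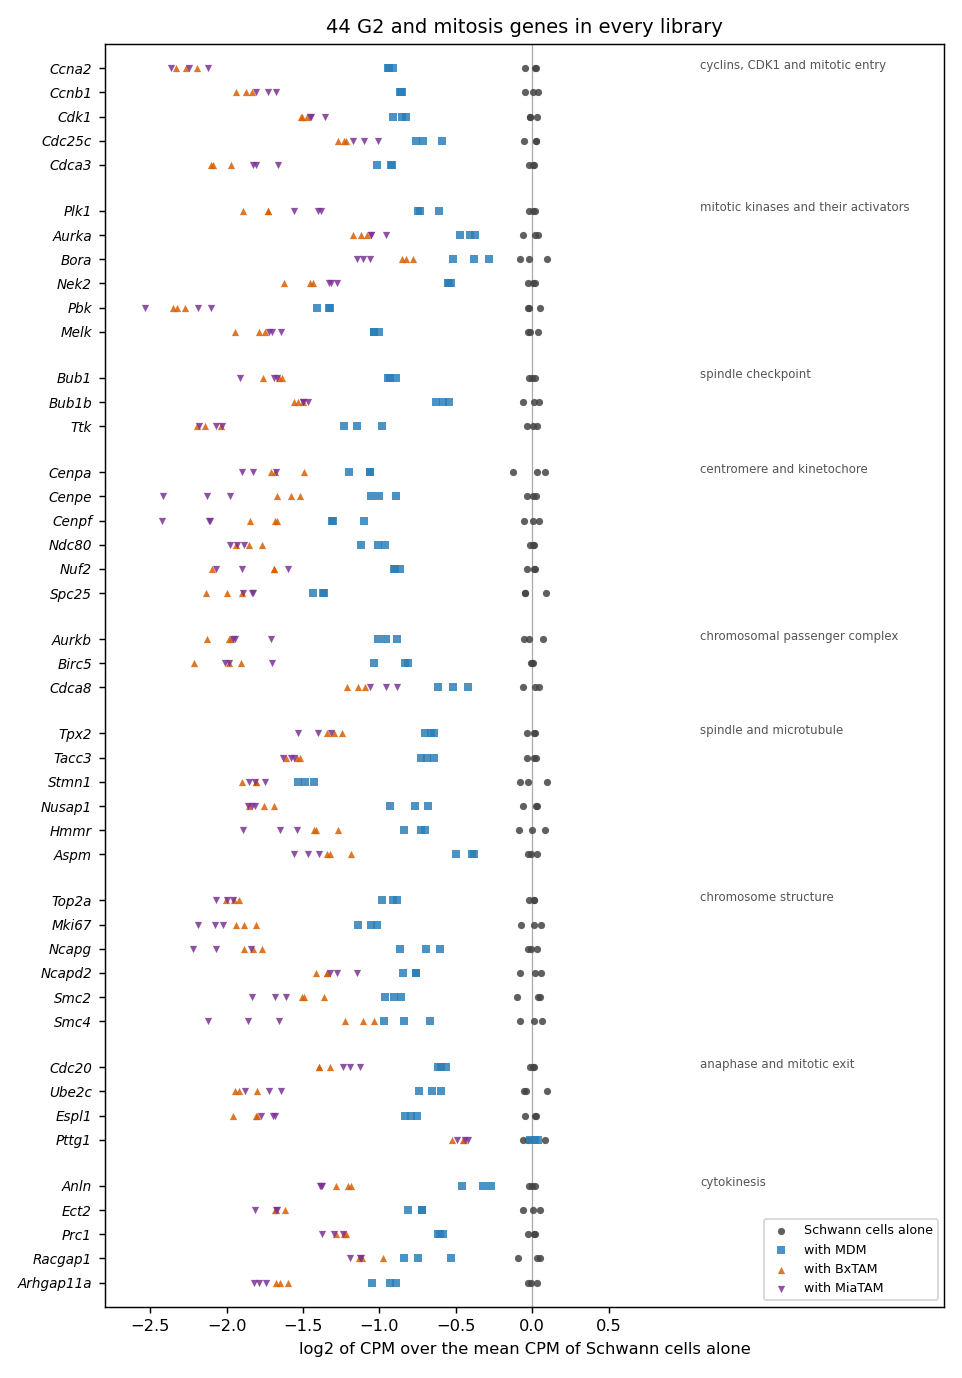
Level of each of the 44 genes in each of the 12 libraries, as log2 of its CPM over the mean CPM of Schwann cells alone (horizontal axis), with 1 row per gene grouped by role. Symbols stand for libraries: circles for cells alone, squares for MDM, upward triangles for BxTAM and downward triangles for MiaTAM. In every row but that of Pttg1 the squares lie left of all circles and all triangles left of the squares.

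Which genes of division differ in Schwann cells kept with macrophages is asked by the comparison of MDM with cells alone. With a threshold of 0.05 on p-values of edgeR's quasi-likelihood F-test, adjusted by Benjamini and Hochberg's method, 43 of 44 members fell and 0 rose, where 33.1% of all tested genes fell and 32.0% rose. The median change was -0.81 on the log2 scale, against -0.01 over all tested genes, and 9 members fell by 2-fold or more, as did 3.33% of all genes. Beside BxTAM, compared with MDM, all 44 fell and 0 rose (17.3% of all genes fell and 17.4% rose), with a median of -0.80, and 11 did so by 2-fold or more (1.03%). Beside MiaTAM, compared with MDM, all 44 fell as well and 0 rose (21.1% and 19.8%), with a median of -0.89, and 10 by 2-fold or more (0.720%). Both TAM comparisons share the MDM libraries. Against cells alone, all 44 fell and 0 rose beside BxTAM (30.9% of all genes fell and 30.0% rose) and beside MiaTAM (33.7% and 31.4%), with medians of -1.65 and -1.73, and 42 fell by 2-fold or more in each (3.63% and 3.83%). The 2 short of that were Pttg1 and Bora beside BxTAM and Pttg1 and Cdca8 beside MiaTAM. At an unadjusted p under 0.05 also, no member rose in these 5 comparisons.

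**Figure D2:**
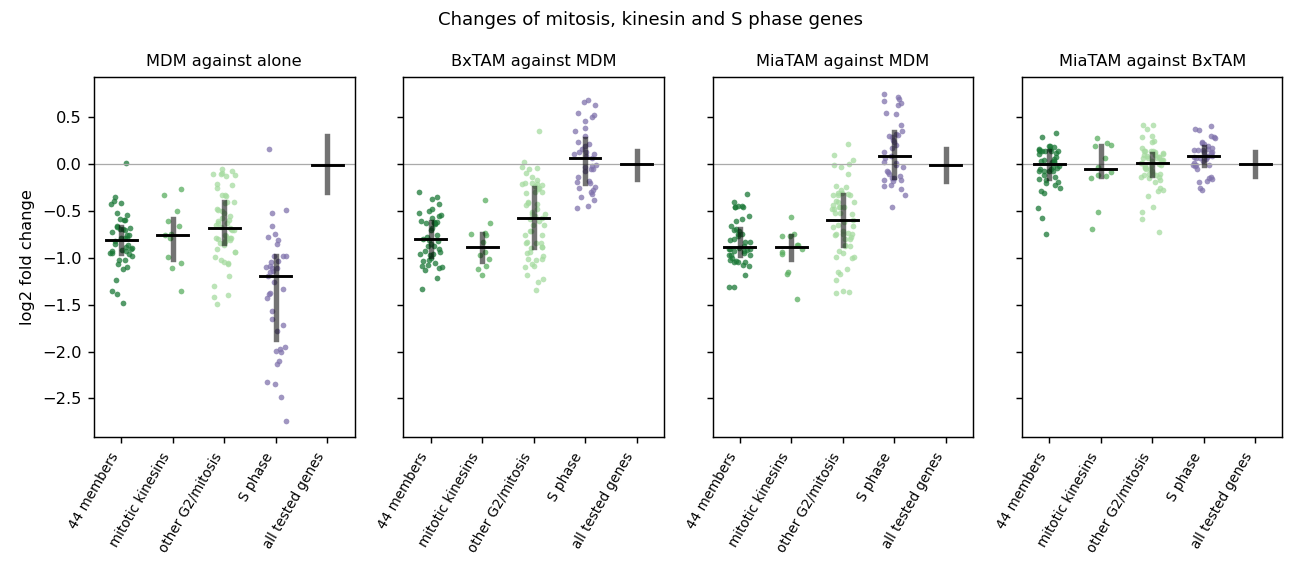
Log2 fold change (vertical axis) of every tested gene (points) of the 44 members, the mitotic kinesins, the other G2 and mitosis genes and the S phase genes in 4 comparisons; horizontal bars are medians, thick vertical bars the middle 50% of genes, and all tested genes are shown by these bars alone. The members' medians are -0.81, -0.80, -0.89 and 0.00 from left to right, and those of the S phase genes -1.20, 0.07, 0.09 and 0.09.

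The cyclin and CDK1 genes start mitosis, and all 5 measured ones fell at both steps. Ccna2, cyclin A2, had 124, 123 and 118 CPM in cells alone, 63.4, 64.6 and 63.1 with MDM, 24.1, 26.5 and 25.3 with BxTAM and 25.6, 23.6 and 27.9 with MiaTAM. It fell by 0.93 ± 0.05 (SE) on the log2 scale beside MDM (adjusted p = 2.1e-12) and by a further 1.33 ± 0.06 beside BxTAM (8.6e-13) and 1.31 ± 0.06 beside MiaTAM (9.4e-13), the largest fall of any member from MDM to BxTAM. Its locus (Rnor_6.0 chr2:123275881-123282214) overlaps that of Exosc9, which has 4462 counts over the 12 libraries, 33.9% of the count of Ccna2; whether counting used strand is not stated in the sources used here, so the split between the genes is uncertain. Ccnb1, cyclin B1 (chr2:30783915-30791221), had 135, 144 and 141 CPM alone, 77.3, 76.7 and 77.7 with MDM, 38.2, 36.6 and 39.2 with BxTAM and 42.1, 40.0 and 43.8 with MiaTAM. Cdk1, the kinase both cyclins bind, had 166, 171 and 166, then 92.6, 94.3 and 89.2, then 58.8, 60.3 and 59.1 with BxTAM and 65.3, 61.4 and 61.0 with MiaTAM. No 2 of the first 3 groups overlapped in any of these 3 genes. Cdc25c, the phosphatase that activates CDK1, averaged 71.6 CPM alone, 44.5 with MDM, 30.3 with BxTAM and 33.6 with MiaTAM. Cdca3, a trigger of mitotic entry, averaged 108, 55.5, 25.9 and 31.6 CPM in the same order.

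**Figure D3:**
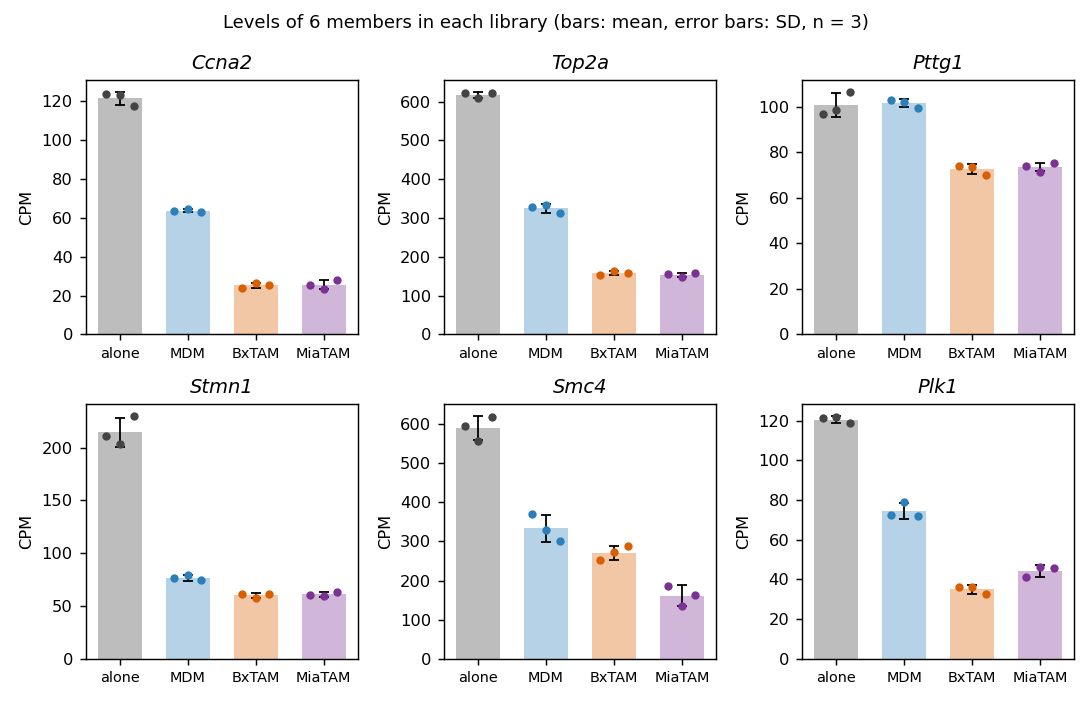
CPM (vertical axes, from 0) of Ccna2, Top2a, Pttg1, Stmn1, Smc4 and Plk1 in each library (points), with bars for the mean and error bars for the SD of the 3 libraries of each group. Ccna2, Top2a and Plk1 descend in 2 steps, Pttg1 at the second, Stmn1 mostly at the first, and Smc4 is lower beside MiaTAM than beside BxTAM.

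All 6 mitotic kinases and their activators fell at both steps, by 0.39 (Bora) to 1.35 (Pbk) on the log2 scale at the first. Pbk, a kinase of dividing cells, had 75.5, 74.9 and 79.1 CPM alone, 30.4, 30.6 and 28.8 with MDM, 15.8, 15.0 and 15.3 with BxTAM and 17.8, 13.2 and 16.8 with MiaTAM. That left 20.1% of its level in cells alone beside BxTAM and 20.9% beside MiaTAM, the lowest share of any member in both. Plk1, polo-like kinase 1, which drives centrosome maturation and mitotic entry, had 121, 122 and 119 CPM alone and 72.3, 78.9 and 72.0 with MDM. With BxTAM it had 36.4, 36.4 and 32.5 and with MiaTAM 41.0, 46.2 and 45.6, so that the 2 TAM groups did not overlap. Aurka, the centrosomal Aurora kinase, and Bora, its cofactor in activating PLK1, had the smallest changes of the role beside MDM (-0.42 ± 0.05 and -0.39 ± 0.07), where their means went from 73.0 to 54.6 and from 33.9 to 25.9 CPM. Aurka then averaged 33.5 CPM with BxTAM and 35.9 with MiaTAM, and Bora 19.2 and 15.8. Nek2, a kinase of centrosome separation, averaged 33.1, 22.7, 11.7 and 13.4 CPM across alone, MDM, BxTAM and MiaTAM, and Melk averaged 65.3, 32.1, 18.4 and 20.2.

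The spindle checkpoint is represented by Bub1, Bub1b and Ttk, the kinase also called MPS1. Ttk had 93.3, 96.0 and 97.8 CPM alone, 48.3, 43.2 and 40.6 with MDM, 21.7, 20.9 and 23.3 with BxTAM and 23.4, 21.1 and 22.8 with MiaTAM. It fell by 1.12 ± 0.06 on the log2 scale at the first step (adjusted p = 2.0e-12), while Bub1b, whose means were 134, 89.1, 46.3 and 47.7 CPM, fell by 0.59 ± 0.04. Bub1 averaged 293 CPM alone, 154 with MDM, 91.1 with BxTAM and 86.7 with MiaTAM. None of the 3 was called between the 2 TAM groups.

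Centromere and kinetochore genes had the lowest median of any role beside MDM, -1.07 over 6 genes, and 4 of the 6 fell by 2-fold or more there. Spc25, a subunit of the NDC80 complex that grips the microtubule, had 61.1, 61.3 and 67.3 CPM alone and 24.6, 23.3 and 24.5 with MDM, a fall by 1.39 ± 0.06 (adjusted p = 2.0e-13). With BxTAM it had 14.4, 17.0 and 15.8 and with MiaTAM 17.8, 17.0 and 17.7. Ndc80 and Nuf2, its partners in the complex, averaged 101 and 106 CPM alone, 49.3 and 57.5 with MDM, 27.9 and 30.2 with BxTAM and 26.4 and 29.7 with MiaTAM. Cenpf, a large protein of the outer kinetochore, had 169, 164 and 157 alone, 76.3, 65.9 and 66.2 with MDM, 45.5, 51.2 and 51.0 with BxTAM and 37.8, 30.5 and 37.8 with MiaTAM. Cenpe, which encodes a motor of the kinesin family although its symbol does not begin with Kif, had 378, 364 and 373 alone, 200.4, 186 and 179 with MDM, 117, 124 and 129.8 with BxTAM and 94.3, 69.4 and 84.8 with MiaTAM. In both genes all MiaTAM libraries lay below all BxTAM libraries. Cenpa, the histone H3 variant of centromeres, was the member with the lowest mean FPKM (a level that also divides by gene length, so that genes compare) in every group, 7.31 in cells alone and 3.34, 2.35 and 2.09 beside MDM, BxTAM and MiaTAM.

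The chromosomal passenger complex corrects wrong attachments of chromosomes. Its kinase gene Aurkb averaged 113 CPM alone, 58.5 with MDM, 27.8 with BxTAM and 31.0 with MiaTAM. Birc5 (survivin), a subunit that brings the complex to centromeres, averaged 79.6, 42.9, 19.5 and 21.4. Cdca8 (borealin) fell less, by 0.52 ± 0.06 at the first step, from 86.8, 91.8 and 93.4 to 63.1, 67.7 and 59.2 CPM, and then had 42.4, 41.2 and 39.2 with BxTAM and 43.4, 49.0 and 46.8 with MiaTAM.

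Among the spindle and microtubule genes, Stmn1 stood apart. It encodes stathmin, which destabilizes microtubules and also acts outside mitosis. Its libraries (gene at chr5:152680407-152686806) held 211, 203 and 229.8 CPM alone, 76.4, 79.6 and 74.2 with MDM, 61.2, 57.5 and 61.3 with BxTAM and 60.8, 59.2 and 63.7 with MiaTAM. It fell by 1.48 ± 0.05 beside MDM (adjusted p = 1.3e-15), the largest fall of any member at that step, and by only 0.35 ± 0.05 and 0.32 ± 0.05 from MDM to BxTAM and MiaTAM. Aspm, a spindle pole protein, had the reverse proportions, with 211, 205 and 202 CPM alone, 158, 157 and 146 with MDM, 81.2, 82.5 and 90.4 with BxTAM and 74.5, 70.0 and 78.3 with MiaTAM. Tpx2, which activates Aurora A on the spindle, averaged 325, 204, 132 and 122 CPM, and Tacc3, a stabilizer of kinetochore fibres, 179, 111, 60.9 and 59.6. Nusap1, a microtubule-bundling protein, averaged 124, 71.6, 36.4 and 34.7 CPM, and Hmmr, a receptor for hyaluronan that also sits on spindle microtubules, 214, 127, 82.6 and 66.3.

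Genes of chromosome structure held the highest count of the members. Mki67, the Ki-67 antigen that coats mitotic chromosomes, had 1242, 1202 and 1136 CPM alone, 591, 575 and 542 with MDM, 323, 341 and 311 with BxTAM and 293, 262 and 282 with MiaTAM. Top2a, the topoisomerase that untangles sister chromatids, had 622, 608 and 622 alone, 328, 334 and 313 with MDM, 154, 163 and 159 with BxTAM and 155, 147 and 159 with MiaTAM, the last 2 groups overlapping. The condensin genes differed among themselves. Smc4, a core subunit, had 594, 557 and 618 CPM alone and 370.5, 329.8 and 301 with MDM, then 252, 274 and 288 with BxTAM and 187, 135 and 162 with MiaTAM. Its fall from MDM to BxTAM was the smallest of any member (-0.30 ± 0.08, adjusted p = 8.4e-03), and it missed the threshold without replicate 1 of MDM (-0.22) or without replicate 1 of BxTAM (-0.25). Ncapg, a subunit of condensin I, averaged 163, 98.8, 45.8 and 39.7 CPM and had the largest fall of any member from MDM to MiaTAM, 1.31 ± 0.07. Smc2, the partner of SMC4, averaged 271, 144, 98.8 and 82.9 CPM, and Ncapd2, another condensin I subunit, 138, 79.8, 53.5 and 58.0.

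Pttg1 was the only member not called beside MDM. It encodes securin, which holds separase inactive until anaphase (chr10:29020049-29026002). Its libraries held 96.7, 98.7 and 106 CPM alone and 103, 102 and 99.5 with MDM, ranges that overlap, with a difference of 0.01 ± 0.04 (adjusted p = 0.82; 95% interval from -0.08 to 0.10). With BxTAM it had 74.0, 73.6 and 70.1 and with MiaTAM 74.1, 71.5 and 75.1, a fall from MDM by 0.48 ± 0.04 (adjusted p = 4.9e-08) and by 0.46 ± 0.04 (8.4e-08). Per gene length it had the highest mean FPKM of the members in all 3 co-cultures (96.3, 69.5 and 70.5), while in cells alone Prc1 had it (145). Espl1, separase itself, went the way of the other members, with means of 78.1, 45.1, 21.6 and 23.7 CPM. Cdc20, the activator of the anaphase-promoting complex, had 173, 173 and 170.1 CPM alone, 112, 116 and 114 with MDM, 68.8, 65.5 and 65.2 with BxTAM and 73.0, 78.9 and 75.4 with MiaTAM. Ube2c, the ubiquitin-conjugating enzyme of the same complex, averaged 50.2, 31.7, 13.6 and 15.0 CPM.

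All 5 cytokinesis genes fell at both steps. In the test of unequal steps below, the second fall was larger in 1 of them for BxTAM and 2 for MiaTAM. The first was larger in 2 and 0. Anln had the largest excess of the second fall for both TAM groups. Anln, anillin, a scaffold of the contractile ring, had 328, 322 and 318 CPM alone, 258, 267 and 235 with MDM, 132, 142 and 139.9 with BxTAM and 123, 124 and 124 with MiaTAM. Its fall beside MDM (0.35 ± 0.04) was the smallest of the 43 called. Ect2, the exchange factor that activates RhoA at the cleavage plane, averaged 224, 133, 70.8 and 68.0 CPM. Prc1, which bundles the central spindle, averaged 420.2, 277, 177 and 170.2. Racgap1, of the centralspindlin complex, averaged 55.5, 34.2, 26.4 and 25.1 CPM, and Arhgap11a, a RhoA GTPase-activating protein, 198, 102, 63.5 and 57.5.

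Whether the 2 steps were equal was tested in the same fit, as the log2 change from alone to MDM minus that from MDM to each TAM group; both steps share the MDM libraries. Of the 44 members, 26 had unequal steps for BxTAM. In 13 the first step was the larger fall (27.4% of all genes had a more negative first step) and in 13 the second (27.1% had a more positive first step). Stmn1 (-1.13 ± 0.09), Spc25 (-0.77 ± 0.12) and Cenpf (-0.74 ± 0.12) led the former, and Ube2c (0.55 ± 0.12), Anln (0.52 ± 0.07) and Pttg1 (0.50 ± 0.08) the latter. For MiaTAM 18 had unequal steps, 7 with a larger fall at the first (26.4% of all genes) and 11 at the second (27.4%). Stmn1 (-1.16 ± 0.09) and Spc25 (-0.93 ± 0.12) again headed the first set, and Anln (0.68 ± 0.07), Aspm (0.62 ± 0.08) and Ncapg (0.59 ± 0.12) the second. Against these shares of all genes, the members' counts were near or under the background.

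The comparison of MiaTAM with BxTAM asks whether the source of the supernatant matters. The median change of the members was 0.00, and 22 had a higher and 22 a lower mean beside MiaTAM. The test called 10 members lower (13.3% of all genes were lower) and 5 higher (11.0%), and 0 members by 2-fold or more in either direction (0.0405% of all genes lower and 0.227% higher). The 5 called higher were near the share of all genes. The lower ones were Smc4 (-0.74 ± 0.09, adjusted p = 9.7e-06), Cenpe (-0.57 ± 0.07, 2.6e-05), Cenpf (-0.47 ± 0.08), Hmmr (-0.31 ± 0.07), Bora (-0.28 ± 0.08), Smc2 (-0.25 ± 0.06), Mki67 (-0.22 ± 0.05), Aspm (-0.19 ± 0.05), Anln (-0.16 ± 0.05) and Arhgap11a (-0.14 ± 0.05). The higher ones were Plk1 (0.33 ± 0.06, 6.4e-04), Cdca3 (0.29 ± 0.06), Cdc20 (0.19 ± 0.04), Cdca8 (0.18 ± 0.06) and Ccnb1 (0.14 ± 0.05). The MiaTAM and BxTAM libraries of all 10 lower genes did not overlap, and 14 members were higher without overlap, where 20.0% and 18.6% of all genes were. Ccnb1 was not called in 11 of 20 alternative settings, Arhgap11a in 8, Cdca8 in 5, and Anln and Aspm in 2 each; the other 10 were called in all 20. Some of the members that were not called had narrow intervals, such as Top2a (-0.13 to 0.04), Tacc3 (-0.12 to 0.06) and Cdk1 (-0.01 to 0.17).

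Gene length moved with this difference and with other falls to MiaTAM. The median length implied by count and FPKM was 4807 bases for the 10 lower members and 1606 for the 5 higher, against 2460 over all tested genes. Across the 44 members the Spearman correlation of length with the change from BxTAM to MiaTAM was -0.56, and across all 12360 genes it was -0.13; genes of the same libraries are not independent replicates. Over the members it was -0.50 from MDM to MiaTAM (-0.01 over all genes) and -0.34 from alone to MiaTAM (0.05), against 0.03 from MDM to BxTAM (0.09), -0.03 from alone to BxTAM (0.12) and -0.19 from alone to MDM (0.05). The median change went from 0.06 in the shortest to -0.05 in the longest of 10 equal length classes of all genes. All 10 lower and all 5 higher members remained on their side of the median of their own length class. Every class median was smaller in size than the smallest called change, 0.14, so this could not come out otherwise. In the 5 other comparisons every member that fell was likewise below the median of its length class, and there too the medians were smaller than any called fall. Such a comparison cannot show how much of a change goes with length. The part of gene length in these differences was not tested further.

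**Figure D4:**
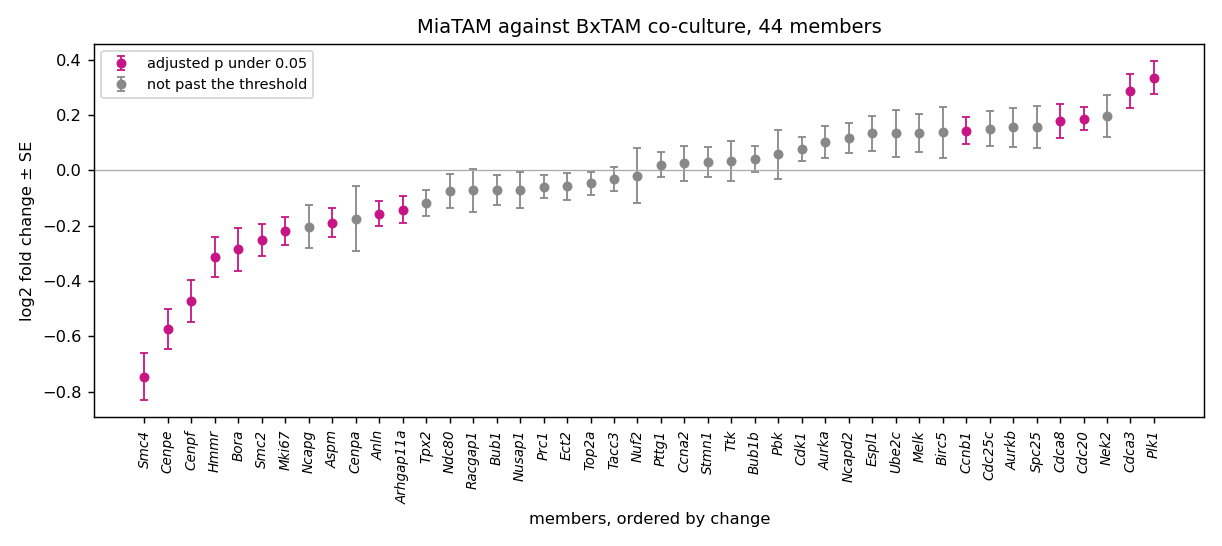
Log2 fold change from BxTAM to MiaTAM (vertical axis, points, with error bars for the SE) of each of the 44 members, ordered by size; coloured points passed the adjusted threshold, grey ones did not. The 10 genes called lower run from Smc4 at -0.74 to Arhgap11a at -0.14, and the 5 called higher from Ccnb1 at 0.14 to Plk1 at 0.33.

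The wider set of division genes can be set beside the members. Of 57 other G2 and mitosis genes tested, 53 fell and 0 rose beside MDM, with a median of -0.68. Against MDM, 50 fell and 1 rose in each of the TAM groups, with medians of -0.58 and -0.60. Over all tested genes 33.1%, 17.3% and 21.1% fell and 32.0%, 17.4% and 19.8% rose in these 3 comparisons. Spag5, a spindle protein, averaged 223 CPM alone, 148 with MDM, 87.6 with BxTAM and 96.2 with MiaTAM. All 12 mitotic kinesins fell in each of these 3 comparisons, with medians of -0.75, -0.89 and -0.89. Kif20a, which carries passenger proteins to the midzone, averaged 275, 159, 69.8 and 81.6 CPM, and Kif11, which pushes spindle poles apart, 264, 157, 74.0 and 69.9.

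Genes of S phase and DNA replication followed another course. Beside MDM 38 of 39 fell and 0 rose (33.1% and 32.0% of all genes), with a median of -1.20. From MDM to BxTAM, however, 13 rose and 10 fell (17.4% and 17.3% of all genes, median 0.07). From MDM to MiaTAM 17 rose and 8 fell (19.8% and 21.1% of all genes, median 0.09). Mcm6, a subunit of the replicative helicase, averaged 253 ± 2.8 CPM (SD, n = 3) alone, 65.2 ± 2.6 with MDM, 103 ± 2.8 with BxTAM and 107 ± 2.5 with MiaTAM. It rose by 0.66 ± 0.04 (adjusted p = 1.9e-10) and by 0.71 ± 0.04 (6.1e-11) from MDM to the 2 TAM groups, where all 44 members fell. Mcm6 was named for its small p and is not typical of the list, whose largest rises were 0.68 and 0.75.

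Of 25 tested regulators of G2 and M transcription, 16 fell and 7 rose beside MDM, and 9 and 10 fell with 4 and 3 rising from MDM to BxTAM and MiaTAM. Over all tested genes 33.1%, 17.3% and 21.1% fell and 32.0%, 17.4% and 19.8% rose in these 3 comparisons, so the regulators that rose were no larger a share than the background. Foxm1, the forkhead activator of G2 genes, averaged 66.3 ± 0.5 CPM (SD, n = 3) alone, 33.7 ± 0.2 with MDM, 19.2 ± 1.7 with BxTAM and 23.0 ± 2.0 with MiaTAM. It fell by 0.98 ± 0.06 beside MDM, by 0.81 ± 0.07 from there to BxTAM and by 0.55 ± 0.07 to MiaTAM. Mybl2, the MYB subunit that joins MuvB, went from 102 to 58.7, 37.4 and 41.7 CPM. Mybl2 fell at both steps as well (-0.80 ± 0.04, then -0.65 ± 0.05 and -0.50 ± 0.05). E2f4, an E2F of the DREAM complex, averaged 54.0, 44.3, 45.1 and 47.8 CPM; it fell at the first step (-0.28 ± 0.06) and was not called at the second (0.02 ± 0.06 and 0.11 ± 0.06). Cdkn1a, the inhibitor p21, rose beside MDM by 0.72 ± 0.04, from 211 to 348 CPM, and fell from there by 0.41 ± 0.04 beside BxTAM and by 0.43 ± 0.04 beside MiaTAM. E2f1 averaged 70.0 CPM alone, 21.5 with MDM, 29.2 with BxTAM and 31.4 with MiaTAM.

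Members with and without a CHR match both fell. The 29 with one had median changes of -0.79 beside MDM, -0.81 from MDM to BxTAM and -0.90 from MDM to MiaTAM, and the 9 without had -0.95, -0.76 and -0.82. Pttg1, with a CHR match and 2 CCAAT boxes among the bases printed above, is in the first set, and Stmn1, which has no CHR match, in the second.

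Library totals ran from 16555215 to 21506669 counts, and a member had between 94 and 23555 counts in a library. The median coefficient of variation of the members over the 3 libraries of a group was 2.87% in cells alone, 3.73% with MDM, 4.71% with BxTAM and 5.49% with MiaTAM. Of 26 macrophage markers, 20 were under 1 CPM in every library, and Marco, C1qa, Tyrobp and Ccr2 were at 0. Their summed level was 34.3 to 36.5 CPM alone, 71.1 to 77.3 with MDM, 67.4 to 68.0 with BxTAM and 78.0 to 81.2 with MiaTAM. Of the 7 tested ones 6 rose beside MDM, and from MDM 1 rose and 1 fell beside BxTAM and 3 rose and 1 fell beside MiaTAM. Of 12 lymphocyte markers 10 were under 1 CPM throughout, and Cd3d, Cd8a and Nkg7 were at 0. They summed to 102 to 115 CPM alone, 187 to 216 with MDM, 136 to 144 with BxTAM and 129.6 to 143 with MiaTAM; of the 2 tested, Ncam1, which other cells express as well, rose beside MDM (0.87) and fell from there (-0.51 and -0.54). Of 8 fibroblast markers Col1a2, Dcn and Lum were at 0, and the sum was 389 to 399.8 CPM alone, 509 to 536 with MDM, 443 to 469 with BxTAM and 493 to 528 with MiaTAM. All 4 tested ones rose beside MDM (median 0.36, with Col1a1 highest at 2.12), and 2 fell and 0 rose from MDM to each TAM group. The Schwann markers summed to between 1698 and 2076 CPM over all libraries, and Cdh19 was at 0. Single Schwann markers went opposite ways: of 8 tested, 4 rose and 2 fell beside MDM (Ngfr by 2.34, Gfap by -1.21), and from MDM 1 rose and 3 fell beside BxTAM (Ngfr by -1.43) and 2 rose and 3 fell beside MiaTAM. Of 15 immediate early genes, which respond to stress and handling as well as to growth factors, 14 rose and 1 fell beside MDM, while from MDM 1 rose and 9 fell beside BxTAM and 1 rose and 7 fell beside MiaTAM. Of 11 mitochondrial chromosome genes 1 rose and 10 fell beside MDM. From MDM 5 rose and 1 fell beside BxTAM and 8 rose and 1 fell beside MiaTAM. Their mean sum was 40900 CPM alone, 41450 with MDM, 43340 with BxTAM and 48800 with MiaTAM. Over all tested genes 32.0% rose and 33.1% fell beside MDM. From MDM, 17.4% rose and 17.3% fell beside BxTAM, and 19.8% rose and 21.1% fell beside MiaTAM. The part of these marker and other lists in the results on the members was not tested.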

How the data were processed

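Total RNA of 12 libraries of rat Schwann cells was measured by stranded mRNA sequencing, per the labels' protocols. The submitters' processing notes name the build Rnor_6.0 and the tools HISAT2, StringTie 1.3.0 and CASAVA. Which tool counted reads, with what annotation and strand setting, is not stated in the sources used here. Per the file headers, the authors deposited a whole-number read count for each gene and library. The authors also deposited an FPKM value, the same count divided by gene length and library size.

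Counts were tested in edgeR 4.0.16 (R 4.3.3) after filterByExpr by group and TMM scaling. One quasi-likelihood fit held all 12 libraries, with 1 mean per group and no block, and gave 6 comparisons and the 2 tests of unequal steps. Benjamini-Hochberg adjusted p-values run over all 12360 genes, and genes under 0.05 were called. CPM values use the TMM-scaled totals, with factors from 0.98 to 1.01. The SE of a log2 change is its size over the square root of F. FPKM was used to compare levels between genes, with the counts to derive gene lengths, and in limma 3.58.1, on log2(FPKM + 1). DESeq2 1.42.0 was a further alternative.

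The members and lists were chosen with earlier results of these data known. All members may be named; of other lists, Foxm1, Mybl2, Cdkn1a, E2f4 and up to 3 genes per comparison with the smallest p were. Motifs were searched as exact letters on both strands of RefSeq GRCr8 windows, taking the first window of a gene with several. The windows of Ccna2, Pbk, Aurkb, Tpx2, Ube2c and Racgap1 were not found. The fit was tested on simulated data. Intervals of log2 changes are 95% and cover the spread between libraries.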

Additional observations from a re-analysis of the deposited data

How the results depend on the processing

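Alternatives were other scaling (RLE or upper-quartile factors), DESeq2's Wald test, limma on log2(FPKM + 1), no filter or a filter at 1 CPM, a fit of the 2 groups compared, a replicate block, and leaving out each of the 12 libraries. In the 5 comparisons with MDM or cells alone, the members called lower stayed at 43 or 44 in all 20 settings and 0 were called higher. Between MiaTAM and BxTAM the count of members called higher, 5, was 7 with upper-quartile factors, 3 when only the 2 groups were fitted, 4 to 6 under the other settings with all libraries, and 3 to 5 with a library left out; it was 3 without replicate 2 or 3 of BxTAM or replicate 3 of MiaTAM. The members called lower numbered 7 to 11 with a library left out. All genes called there, 2997, ranged from 1933 to 3113, with 1978 without replicate 2 and 1976 without replicate 3 of BxTAM and 1933 without replicate 2 of MiaTAM. The cause was not tested. With the replicate block 10 members were called lower and 5 higher in that comparison, and the block changed no count of members called in the others; same-numbered libraries deviated together with correlations from -0.13 to 0.09, so the numbers were not taken to pair the libraries. Median member changes lay between -0.83 and -0.75 beside MDM, -0.84 and -0.74 from MDM to BxTAM, and -0.89 and -0.80 from MDM to MiaTAM. The lowest count of a member in a library was 94.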
